A study of Mus musculus with 47 samples.

Results

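The 10 apolipoprotein genes Apoa1, Apoa2, Apoa4, Apoa5, Apob, Apoc1, Apoc3, Apoe, Apoh and Apom were described in liver chromatin of male and female mice that lack the H3K27 methyltransferases Ezh1 and Ezh2. The genes were chosen by name out of 22367 protein-coding genes, and each was measured over its annotated span in the mm9 mouse genome. The 4 neighbours Apoa1, Apoc3, Apoa4 and Apoa5 were also measured as one block (chr9:46036663-46080002). The study mapped the repressive mark H3K27me3 and the activating marks H3K27ac and H3K4me1 by ChIP-seq in frozen liver of 7 week old mice, and asked how loss of both enzymes changes these marks in each sex. Control mice were floxed for Ezh2 (Ezh2 f/f) and carried both enzymes. E1/E2-KO mice were Ezh1-/-, Ezh2 f/f and carried an Alb-Cre transgene, so that Ezh1 was absent from the whole animal and Ezh2 was deleted in hepatocytes, where the albumin promoter is active. Other liver cells of E1/E2-KO mice still had Ezh2. Each mark was measured in 4 livers of each sex and genotype, except 3 for H3K4me1 in E1/E2-KO females by the sample records. The authors pooled the reads of a group before calling peaks, so each mark and group is represented by 1 list of positions with no score or read count. No value below therefore has a replicate error, and no difference was tested.

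Apolipoproteins are the protein part of lipoproteins, the particles that carry triglyceride and cholesterol in blood, and most of them are made and secreted by hepatocytes. Some build a particle (Apob), some act on the enzymes that remodel or empty it (Apoa1, Apoa5, Apoc3), and some are ligands for the receptors that take it up (Apoe). H3K27me3 is placed by polycomb repressive complex-2, whose catalytic subunit is Ezh1 or Ezh2, and lies in broad domains over silent genes. H3K27ac marks active promoters and enhancers, and H3K4me1 marks enhancers, often as shoulders beside the acetylated part.

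The lists differed in size, which bears on each comparison of the activating marks. The control male H3K27ac list held 29359 peaks over 17.3 Mb, whereas the other H3K27ac lists held 49702 to 55930 peaks over 26.5 to 32.0 Mb. Total bases under H3K27ac peaks were 1.86 times higher in E1/E2-KO male than in control male liver, but 0.847 times as high in E1/E2-KO female as in control female liver. The H3K4me1 ratios were 0.975 in males and 0.861 in females, and the H3K27me3 ratios were 0.979 and 0.971. Lists of positions called within each group cannot show a change in the global level of a mark. The paper cites reduced global H3K27me3 in most E1/E2-KO hepatocytes at a later age. It adds that its ChIP-seq may underestimate the loss at some sites. An H3K27me3 region listed in E1/E2-KO liver alone is therefore a difference in called positions, and not a measured gain of the mark. The number of reads behind a list is not given in the sources used here, so a position outside the peaks of a list is one where no peak was called. Within 10 kb, hepatocyte markers (Alb, Ttr, Serpina1a, Tat and Ass1) held 3652 bases under H3K27ac peaks in control males and 10558 in E1/E2-KO males. They held 11924 in control females and 10182 in E1/E2-KO females. No peak covered a start of any of the 5, and Serpina1a had no base under a peak in any list. In the same order, cholangiocyte markers held 749, 1731, 1330 and 1388 bases, and intestinal markers 2134, 4972, 4038 and 2692. Leukocyte and stellate cell markers held 0 to 774 and 0 to 1078 bases. Endothelial markers held 2220 to 11766 bases. Livers are mixtures of cells, so that fewer cells carrying a mark and less of the mark in each cell cannot be told apart.

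The clearest difference at these genes was in H3K27me3 over the Apoa1-Apoc3-Apoa4-Apoa5 block. In both control lists, 0% of the block lay inside an H3K27me3 region. In E1/E2-KO males 100% of it did, and in E1/E2-KO females 43.4%. The E1/E2-KO male list had a single region of 52800 bp (chr9:46027601-46080400), which began at -9062 bp from the first base of the block and ended 398 bp past the last base of Apoa5. The E1/E2-KO female list had a region of 18800 bp (chr9:46037601-46056400), which began 938 bp inside Apoa1 and covered Apoc3 and Apoa4. In the control lists the nearest regions lay 226262 bp (male) and 227062 bp (female) to the left of the block, and 27198 bp and 27598 bp to its right, so the block stood in a gap between domains. The region on the right was also present in both E1/E2-KO lists, 28798 bp (male) and 25598 bp (female) from the block, with a width of 54800 to 58000 bp in the 4 lists. The map of the block shows the flanking domain at about the same place in each list and the added region in both E1/E2-KO lists.

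**Figure D1:**
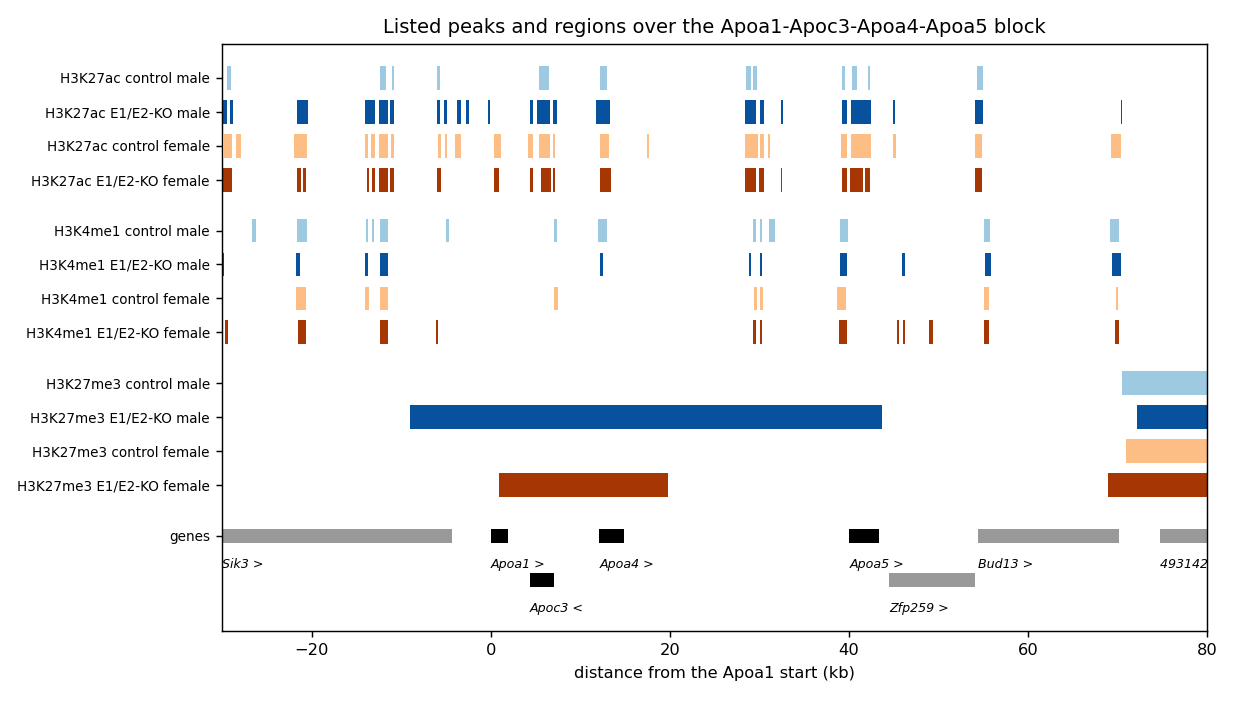
Peaks and regions of the 12 lists over the Apoa block, as bars against the distance from the Apoa1 start in kb, with the block genes in black, other genes in grey and arrowheads for strand. H3K27me3 regions of 52800 bp (E1/E2-KO male) and 18800 bp (E1/E2-KO female) lie over the block, and neither control list has a region there.

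Gene by gene, Apoc3, whose protein slows the breakdown of triglyceride by lipoprotein lipase, was 0% covered in both control lists and 100% covered in both E1/E2-KO lists. Apoa4, an exchangeable apolipoprotein, gave the same 4 values. Apoa1, the main protein of high-density lipoprotein, was 0% covered in both controls, 100% in E1/E2-KO males and 50.3% in E1/E2-KO females. Apoa5, which promotes triglyceride clearance, was 0% covered in both controls, 100% in E1/E2-KO males and 0% in E1/E2-KO females. The female region thus stopped 20315 bp short of Apoa5. With a change called at 25 percentage points, 4 of the 10 members were higher in E1/E2-KO males and 3 of 10 in E1/E2-KO females, and none was lower in either sex. These calls come from 1 region in each sex and are not separate events. Apoh was the only member with coverage in a control list, so no other member could be called lower. Among the 22367 genes, 9.86% were called higher and 6.07% lower in males, and 6.29% higher and 7.59% lower in females. Of these genes, 12881 in males and 12832 in females were at 0% in control and could not be called lower either. Among 5400 genes with H3K27ac over the start of any annotated transcript in both control lists, 11.8% were higher and 4.44% lower in males, and 5.85% higher and 4.63% lower in females.

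A shift from no coverage to full coverage was less common than a call. It was found at 645 genes (2.88% of all genes) in males and 306 (1.37%) in females. Only genes at 0% in control could make this shift, 12881 in males and 12832 in females. The shares among those genes are therefore larger. The reverse shift, from full coverage to none, was found at 371 genes in males and 483 in females. E1/E2-KO males had 3124 H3K27me3 regions that no control male region overlapped, with a median width of 22000 bp, and 117 of them (3.75%) were as wide as the one over the block or wider. E1/E2-KO females had 2849 such regions with a median width of 24800 bp, and 75.5% were at least as wide as the one over the block. The male region was therefore among the wider regions of its kind and the female region was not.

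**Figure D2:**
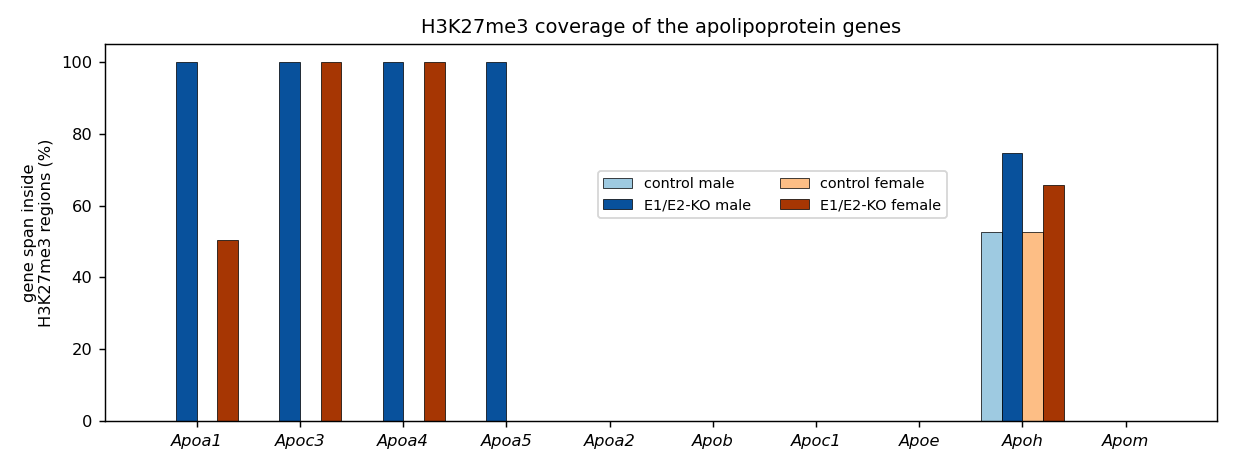
Percent of the span of each apolipoprotein gene inside H3K27me3 regions in the 4 lists, 1 bar per list without error because livers were pooled; a missing bar is 0%. Bars at 100% stand at Apoc3 and Apoa4 in both E1/E2-KO lists, and Apoh is the member with coverage in control liver (52.5% in both sexes).

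H3K27ac peaks were listed across the block in each group, the E1/E2-KO livers with the H3K27me3 region included. Within 10 kb of the block there were 8 peaks over 4389 bases in control males, 15 over 10115 in E1/E2-KO males, 15 over 10856 in control females and 12 over 8320 in E1/E2-KO females. The control male value was the lowest and the other values lay close together. The ratio of E1/E2-KO to control was 2.30 in males and 0.766 in females. Divided by the ratio of list totals, these became 1.24 and 0.905. Of the 52800 bp under the E1/E2-KO male H3K27me3 region, 18.8% lay under H3K27ac peaks of the same liver group, compared with 8.31% in control males, 19.9% in control females and 15.8% in E1/E2-KO females. In pooled livers, whether marks listed at the same place lie in the same cells cannot be told apart.

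Joined over the 4 lists, the H3K27ac peaks of the block formed 18 sites, of which 6 were in all 4 lists. These 6 lay at -5.80 kb from the Apoa1 start, inside Apoc3 (chr9:46041828-46043319), at the 5′ end of Apoa4 (chr9:46048347-46050031), between Apoa4 and Apoa5 (chr9:46065077-46066462), before Apoa5 (chr9:46075764-46076484) and inside Apoa5 (chr9:46076819-46079080). The control male list lacked the other 12. A single site, 32.5 kb from the Apoa1 start (chr9:46069013-46069283), was in both E1/E2-KO lists and in neither control list, and no site was in both control lists alone.

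H3K4me1 peaks were sparser. Within 10 kb of the block there were 7 peaks over 3752 bases in control males, 5 over 1919 in E1/E2-KO males, 4 over 2120 in control females and 7 over 2449 in E1/E2-KO females. The ratio was 0.511 in males and 1.16 in females, so that the sexes went opposite ways. Within the block span alone, the female ratio was 0.645, and 3 of the 7 E1/E2-KO female peaks lay beyond Apoa5. The peaks formed 12 sites, of which 2 were in all 4 lists, 30.2 kb and 39.2 kb from the Apoa1 start. A single site, between Apoc3 and Apoa4 (chr9:46043665-46044163), was listed in both controls and in neither E1/E2-KO list. Both E1/E2-KO H3K27me3 regions covered it, and 276 of its middle 300 bases lay under an H3K27ac peak in E1/E2-KO males, 100 in control females, 86 in E1/E2-KO females and 0 in control males.

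The sequence of that site and the 150 bases before the span of Apoa1, Apoa4 and Apoa5 are shown because they are the promoter-side DNA of the block that the E1/E2-KO regions cover, and Apob is shown as a member whose start lay under H3K27ac and outside H3K27me3 in each group. They were read from the mm9 genome, 5′ to 3′ on the strand of the gene (for the site, the strand of Apoc3), and overlap no annotated exon. Capitals mark matches on either strand to CAAAGNNCA (HNF4-type), TTGCNNAA (C/EBP) and TGTTTNC (FOXA), where N is any base. The TATA box was searched as TATAAA.
Apoa1 (chr9:46036513-46036662): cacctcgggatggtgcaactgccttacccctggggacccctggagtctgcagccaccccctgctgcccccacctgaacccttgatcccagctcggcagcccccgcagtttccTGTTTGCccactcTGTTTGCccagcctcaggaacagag
Apoc3-Apoa4 site (chr9:46043761-46044060): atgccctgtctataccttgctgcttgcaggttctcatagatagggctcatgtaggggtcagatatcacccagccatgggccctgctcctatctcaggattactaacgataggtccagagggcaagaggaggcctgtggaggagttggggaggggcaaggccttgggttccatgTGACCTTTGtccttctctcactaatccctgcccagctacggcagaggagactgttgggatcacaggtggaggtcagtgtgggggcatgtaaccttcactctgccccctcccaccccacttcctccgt
Apoa4 (chr9:46048629-46048778): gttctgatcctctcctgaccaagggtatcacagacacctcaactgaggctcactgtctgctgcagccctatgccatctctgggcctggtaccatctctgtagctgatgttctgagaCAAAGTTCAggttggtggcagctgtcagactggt
Apoa5 (chr9:46076566-46076715): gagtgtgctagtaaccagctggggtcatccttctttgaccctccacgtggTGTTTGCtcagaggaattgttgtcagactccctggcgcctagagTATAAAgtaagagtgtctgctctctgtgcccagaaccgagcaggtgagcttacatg
Apob (chr12:7984304-7984453): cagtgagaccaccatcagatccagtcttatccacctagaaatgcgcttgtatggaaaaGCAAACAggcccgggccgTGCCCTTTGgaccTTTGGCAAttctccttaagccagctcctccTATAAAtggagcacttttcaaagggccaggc

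The Apoa1 window held the FOXA letters at 38 and 25 bases before the span, and the Apoa4 window held the HNF4-type letters at 34 bases before it. The Apoa5 window held the FOXA letters at 100 bases and a TATA box at 56 bases. The Apob window held FOXA, HNF4-type, C/EBP and TATA letters, at 92, 74, 61 and 31 bases. Among 150-base windows before all 22367 genes, 2.88% held the HNF4-type letters, 9.25% FOXA, 5.00% C/EBP and 7.88% a TATA box. The H3K4me1 site held 1 match to the HNF4-type letters, as did 10.9% of the middle 300 bases of 50984 control male H3K4me1 peaks. A match of letters is a description of the sequence. The E1/E2-KO male H3K27me3 region covered the 3 windows of the block and the site, and the female region covered the site and the Apoa4 window.

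For H3K27ac over the 10 members, bases under peaks within 10 kb of each gene were higher in the E1/E2-KO list for 10 of 10 in males, but for 2 of 10 in females. Most genes with a peak in either list went the same way, with median ratios of 1.57 in males and 0.860 in females. At a ratio of at least 2, 5 of 10 members were called higher in males and none lower, and none was called in either direction in females. Among genes with a peak in either list, 34.5% were called higher and 0.587% lower in males, and 6.10% were higher and 7.06% lower in females. The median ratio of the members was 2.26 in males and 0.828 in females, beside 1.57 and 0.860 over all genes with a peak. Among the 5400 genes with H3K27ac over a start in both control lists, 14.1% were called higher in males and the median ratio was 1.29. After division by the list totals, 1 member, Apoe, was still called higher in males. That division lowers each male ratio by the same factor. The windows of Apoa1, Apoc3 and Apoa4 overlap, as do those of Apoe and Apoc1, so the 10 members fall in 7 separate windows.

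**Figure D3:**
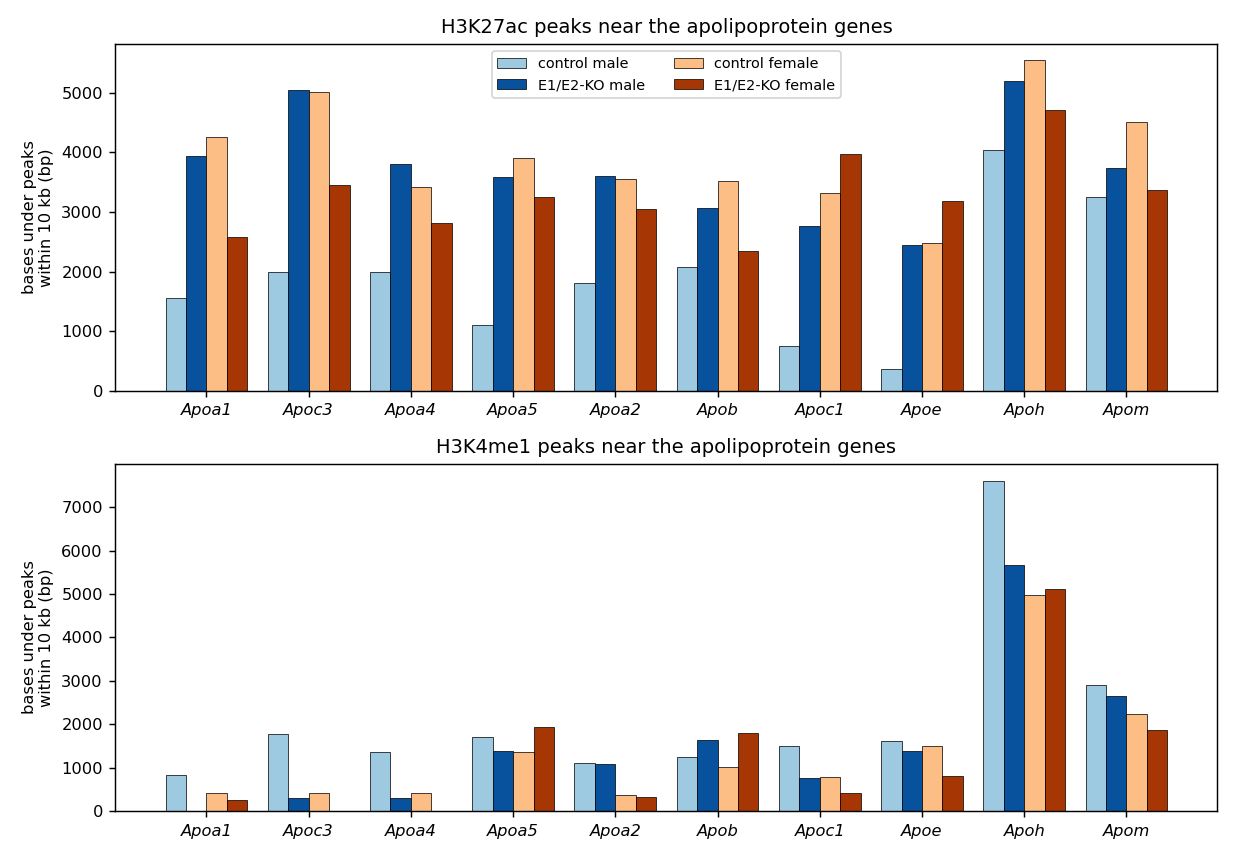
Bases under H3K27ac (top) and H3K4me1 (bottom) peaks within 10 kb of each apolipoprotein gene in the 4 lists, 1 bar per list without error because livers were pooled; a missing bar is 0. The control male H3K27ac bar is the lowest of the 4 at each gene, from 357 bp at Apoe to 4038 bp at Apoh.

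Apoe, the ligand by which the low-density lipoprotein receptor binds remnants, had 357 H3K27ac bases in control males, 2444 in E1/E2-KO males, 2481 in control females and 3180 in E1/E2-KO females. The ratio was 6.85 in males and 1.28 in females, or 3.69 and 1.51 after division by the list totals. The male ratio was 2.02 with a window of 50 kb, 3.34 with equally many widest peaks and 11.8 with peaks within 1 kb merged, and the female ratio was 2.19 over the gene span. Apoc1, a small exchangeable apolipoprotein encoded 3450 bp downstream of Apoe, had 755, 2772, 3309 and 3977 bases in the same order. Its ratios were 3.67 and 1.20, or 1.98 and 1.42 after that division. The male ratio was also below 2 over the gene span (1.18) and with equally many widest peaks (1.41), and it was 6.01 with peaks within 1 kb merged. These 2 genes were the members with a ratio above 1 in both sexes. The 357 bases near Apoe in control males came from 1 peak inside Apoc1 and part of another downstream of it, and no control male peak lay on Apoe or the DNA before it. The other 3 lists each had a peak centred at -400 to -363 bp from the Apoe start, one centred at 442 to 472 bp and one at -1559 to -1552 bp. A site farther upstream, inside the neighbouring Tomm40 (chr7:20288021-20288572) was in both E1/E2-KO lists and in neither control list. An H3K4me1 peak overlapped this site in each list, with a width of 1394 bp in control males, 1140 bp in E1/E2-KO males, 1498 bp in control females and 406 bp in E1/E2-KO females.

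**Figure D4:**
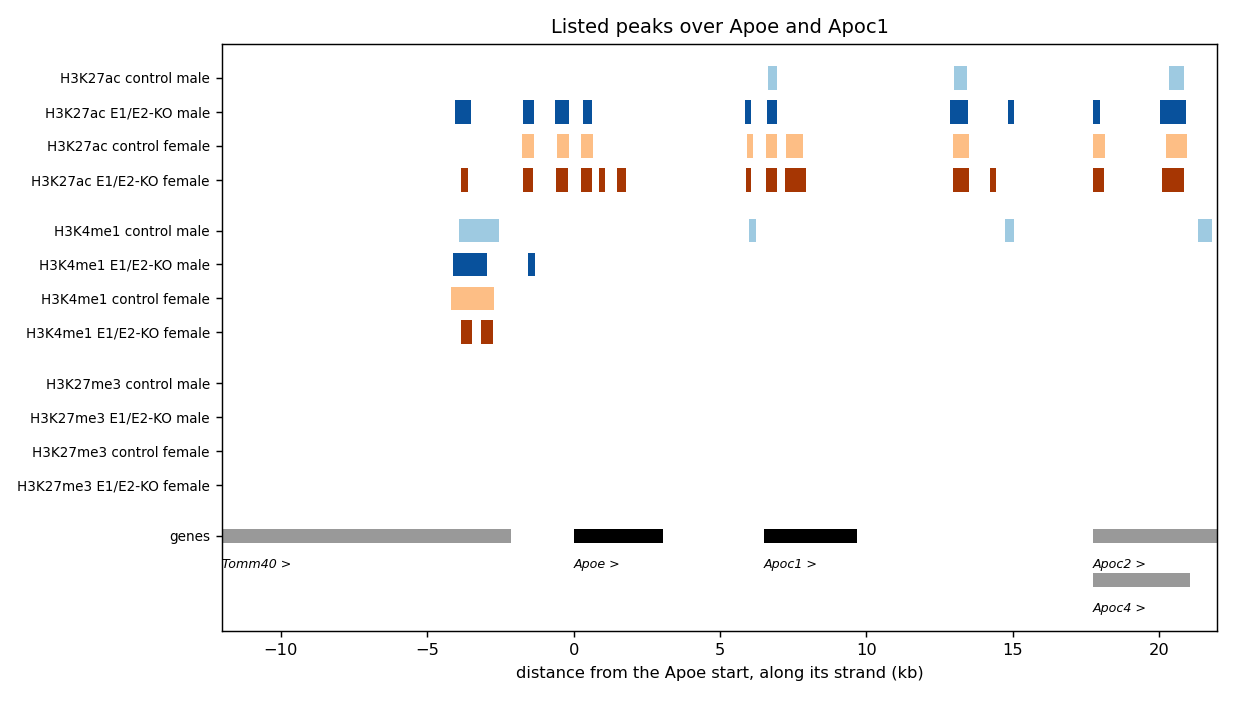
Peaks of the 12 lists over Apoe and Apoc1 as bars against the distance from the Apoe start along its strand in kb, with both genes in black and other genes in grey. Control male H3K27ac peaks are absent from Apoe itself, the other 3 H3K27ac lists have peaks on both sides of its start, and no H3K27me3 region is listed in the window.

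In the block, Apoa1 had 1559, 3941, 4263 and 2585 H3K27ac bases in control male, E1/E2-KO male, control female and E1/E2-KO female liver, with ratios of 2.53 and 0.606. Apoc3 had 1989, 5052, 5012 and 3455 bases, with ratios of 2.54 and 0.689. Apoa5 had 1101, 3583, 3901 and 3248 bases, with ratios of 3.25 and 0.833. These are the called members beside Apoe and Apoc1, and at each of them the E1/E2-KO male value was near the control female value. Division by the list totals took the male ratios of Apoa1, Apoc3 and Apoa5 to 1.36, 1.37 and 1.75, below the call. Equally many widest peaks gave 1.61 for Apoa1 and 1.97 for Apoc3, and the gene span gave 1.54 for Apoc3. Apoa2 (1801, 3599, 3557 and 3045 bases), the other main protein of high-density lipoprotein, and Apoa4 (1989, 3800, 3415 and 2811 bases) fell just short of the call in males, with ratios of 2.00 and 1.91. The Apoa2 ratio was under 2 before rounding. Division by the list totals took the male ratios of Apoa2 and Apoa4 to 1.08 and 1.03, and the gene span gave 1.03 for Apoa2. Apob, the structural protein of very low- and low-density lipoprotein, had 2069, 3070, 3523 and 2344 bases and ratios of 1.48 and 0.665, and the male ratio was 0.799 after division by the list totals. Apoh (4038, 5190, 5541 and 4714 bases) and Apom (3249, 3729, 4511 and 3367 bases) had male ratios of 1.29 and 1.15, which became 0.692 and 0.618 after division by the list totals.

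E1/E2-KO males had 42 H3K27ac peaks within 10 kb of a member, of which 22 overlapped no control male peak. In the whole list this was true of 54.5% of peaks. Of the 22, 16 overlapped a control female peak and 18 a peak of either female list (81.8%), whereas 64.3% of such peaks of the whole list did. Control females had 43 peaks at the members, of which 9 were not in E1/E2-KO females, and E1/E2-KO females had 43, of which 6 were not in control females. In the whole lists these shares were 27.9% and 24.9%. Over the 4 lists, H3K27ac peaks at the members formed 53 sites, 19 of them in all 4 lists (35.8%, beside 30.1% of 73144 sites of the genome). Sites in both E1/E2-KO lists and no control list numbered 2 (3.77%, beside 5.75%), and none was in both control lists alone (beside 0.617%).

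H3K4me1 was lower at most members in both sexes. Bases within 10 kb were lower in the E1/E2-KO list at 9 of 10 members in males and 7 of 10 in females. The median ratio over all genes with a peak was also below 1 in each sex (0.971 and 0.842), so this direction is not particular to the members. After division by the list totals, the female ratios of Apoa2 (1.04), Apoa5 (1.65), Apob (2.06) and Apoh (1.20) were above 1. At 2-fold, Apoa1, Apoa4 and Apoc3 were called lower in males and Apoa4 and Apoc3 in females, and none was called higher. Among genes with a peak, 8.93% were called lower and 9.95% higher in males, and 17.3% lower and 8.54% higher in females. The median ratio of the members was 0.779 in males and 0.707 in females, beside 0.971 and 0.842 over all genes with a peak. The called genes share peaks, so the calls are not separate events. None of these calls was made with a window of 50 kb, and none of the female calls was made over the gene span alone.

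Apoc3 had 1776 H3K4me1 bases in control males, 290 in E1/E2-KO males, 422 in control females and 0 in E1/E2-KO females. Apoa4 had 1362, 290, 422 and 0 bases, and Apoa1 had 830, 0, 422 and 247. The 422 bases are 1 control female peak, at the site between Apoc3 and Apoa4 whose sequence is given above. In control males this site had a peak of 416 bp, and a further peak of 946 bp lay over the Apoa4 start. E1/E2-KO males had a peak of 290 bp inside Apoa4 that did not reach the start. Apoc1 (1485, 761, 788 and 423 bases) was lower by ratios of 0.512 and 0.537, just short of the call, and the female ratio was 0.926 with peaks within 1 kb merged. Apoe had 1608, 1384, 1498 and 794 bases. Apoa2 had 1108, 1076, 365 and 328 bases, and differed more between sexes than between genotypes. Apoa5 had 1692, 1375, 1363 and 1933 bases, lower in E1/E2-KO males and higher in E1/E2-KO females.

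Apob was the member with more H3K4me1 in E1/E2-KO liver of both sexes, with 1247 bases in control males, 1640 in E1/E2-KO males, 1013 in control females and 1799 in E1/E2-KO females. The ratios were 1.32 and 1.78, but with a window of 50 kb they were 0.972 and 1.06. The female ratio was 2.06 after division by the list totals and 2.30 with equally many widest peaks. A site before the gene (chr12:7982688-7983271) was listed in both E1/E2-KO lists, with peaks of 408 and 584 bp, and in neither control list. Similar sites in both E1/E2-KO lists alone were found inside the span of Apoh (chr11:108214330-108214731) and downstream of Apoa5 (chr9:46082532-46082933). Together these were 3 of 39 H3K4me1 sites at the members (7.69%, beside 3.11% of 97447 sites of the genome), and 1 site was in both control lists alone (2.56%, beside 3.57%). H3K27ac covered the Apob start in each list, with peaks of 1294 bp in control males, 1504 bp in E1/E2-KO males, 1645 bp in control females and 1574 bp in E1/E2-KO females. The nearest H3K27me3 region to Apob lay 187253 bp away in control males, 18359 bp in E1/E2-KO males, 25159 bp in control females and 28759 bp in E1/E2-KO females.

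Apoh encodes beta-2-glycoprotein I, a plasma protein that binds phospholipid, and its start lies between H3K27me3 domains in each list. Its annotated span of 71043 bp (chr11:108204668-108275710) includes upstream alternative transcripts, whereas the main transcript spans 19104 bp (chr11:108256607-108275710). Over the full span, coverage was 52.5% in both control lists, 74.7% in E1/E2-KO males and 65.7% in E1/E2-KO females, a change of 22.1 and 13.1 points that was not called. Over the main transcript, coverage was 0% in both controls, 50.8% in E1/E2-KO males and 23.6% in E1/E2-KO females, so that the male change was called and the female change fell just short. The coverage came from the downstream domain, whose left edge lay at 108279201 in both control lists, beyond the gene, at 108266001 in E1/E2-KO males and at 108271201 in E1/E2-KO females. In males the far edge of this domain moved as well, from 108309600 to 108296000, and its width was 30400 bp in control and 30000 bp in E1/E2-KO. In females it ended at 108296000 in both lists, with widths of 16800 and 24800 bp. The upstream domain ended at 108242000 in both controls, 108248000 in E1/E2-KO males and 108246800 in E1/E2-KO females. Both domains thus reached closer to the main start in E1/E2-KO liver of both sexes. H3K27ac peaks on either side of that start remained listed. The peak after the start was 746 bp wide in control males, 898 bp in E1/E2-KO males, 893 bp in control females and 817 bp in E1/E2-KO females. Apoh, whose long span gives the widest window of the members, had 7610, 5674, 4972 and 5124 H3K4me1 bases.

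**Figure D5:**
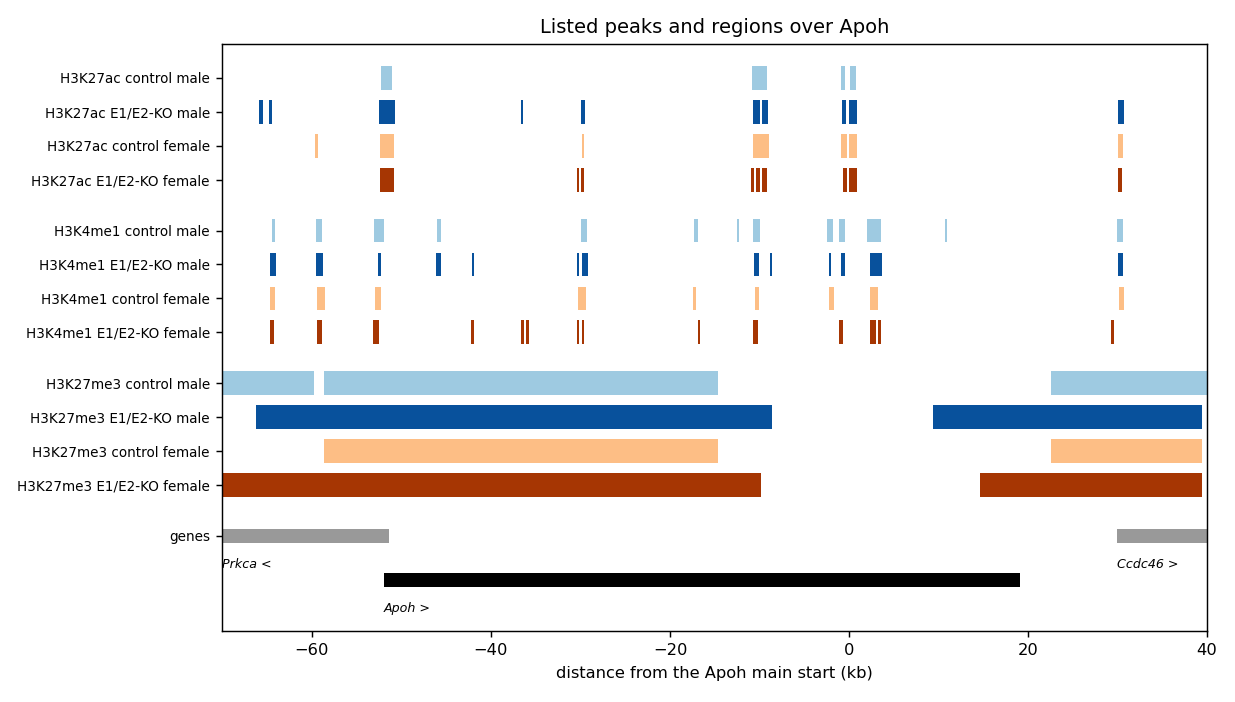
Peaks and regions of the 12 lists over Apoh as bars against the distance from the start of its main transcript in kb, with Apoh in black and neighbouring genes in grey. The upstream and downstream H3K27me3 regions reach closer to the start in both E1/E2-KO lists than in the controls, and H3K27ac peaks flank the start in each list.

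Apoa2, Apob, Apoc1, Apoe and Apom had 0% H3K27me3 coverage in each of the 4 lists. For Apoe and Apoc1 the nearest region lay 51085 to 70793 bp away, and for Apom, which carries sphingosine-1-phosphate on high-density lipoprotein, 34205 to 41541 bp. At Apoa2 a region of 20000 bp (chr1:173130801-173150800) in E1/E2-KO males ended 4384 bp before the gene, and no control male region overlapped it. It covered 99.5% of the neighbouring Nr1i3, which encodes the xenobiotic receptor CAR, and 60.9% of Tomm40l, both of which were at 0% in the other 3 lists. Beside the Apoa block, the E1/E2-KO male region reached 2.21% of the neighbouring kinase gene Sik3 and 0% of Zfp259, 1144 bp past Apoa5. Over the block, the male region thus ended close to Apoa5 and reached farther out on the side of Apoa1. Beside Apoh, coverage of Prkca was 62.3% in control males and 41.2% in E1/E2-KO males, and 1.76% and 7.63% in females. Ccdc46, on the downstream side, had 45.7% and 2.18% in males and 18.2% and 14.3% in females. Apom had 4 H3K27ac peaks within 10 kb in control males, 4 in E1/E2-KO males, 5 in control females and 4 in E1/E2-KO females. The 4 peaks that the lists share lay at the same places, and the fifth, inside Apom, was in control females.

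Transcription starts of the members were mostly beside H3K27ac peaks and not under them. At the main start of each gene, H3K27ac peaks covered Apob in each list and Apoa4 in E1/E2-KO males, which makes 1, 2, 1 and 1 of 10 members in the 4 lists. Over all genes, 18.1%, 26.7%, 28.4% and 23.6% of starts were covered. H3K27me3 regions covered 0 of 10 member starts in either control list, 4 in E1/E2-KO males (Apoa1, Apoa4, Apoa5 and Apoc3) and 2 in E1/E2-KO females (Apoa4 and Apoc3), beside 33.8% to 38.7% of all starts. Apoa4 in E1/E2-KO males was the one case of a member start under both marks. Among genes with H3K27ac at the start, 15.6% were also inside H3K27me3 in control males and 29.9% in E1/E2-KO males, and 19.6% and 21.2% in females.

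In the wider lipoprotein pathway, 40 genes were counted by the same measures. They were 7 other genes with symbols that begin with Apo, receptors, lipases and transfer proteins, assembly and efflux genes, and regulators. For H3K27me3, 14 were called higher and 2 lower in E1/E2-KO males, and 10 higher and 3 lower in E1/E2-KO females, beside 9.86% and 6.07% of all genes in males and 6.29% and 7.59% in females. None of the 7 other genes with such symbols (Apoc2, Apoc4, Apod, Apof, Apobec1, Apoo and Apool) was called. Of the 10 regulators, 6 were higher in males and 4 in females. Hnf4a, which encodes a liver transcription factor whose binding letters were searched above, was 0% covered in both controls, 89.1% in E1/E2-KO males and 71.0% in E1/E2-KO females. Ppara, the receptor for fatty acids, was at 65.7% and 26.3% in the E1/E2-KO lists from 0% in both controls. Abcg5 and Abcg8, which share a promoter region and export sterols into bile, went from 0% to 98.3% and 100% in males and to 78.9% and 36.4% in females. Dgat2 (triglyceride synthesis), Lrp1 (remnant receptor) and Pltp (phospholipid transfer) were also higher in both sexes.

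Lpl and Abcg1 were the pathway genes called lower for H3K27me3 in both sexes. Lpl, the lipase of fat, muscle and macrophages, was 100% covered in both controls, 10.4% in E1/E2-KO males and 0% in E1/E2-KO females. Abcg1, a cholesterol exporter, was at 99.3% and 86.9% in the controls and at 12.3% and 0% in the E1/E2-KO lists. For H3K27ac, 22 of the 40 genes were called higher in males and none lower, and 1 was higher and 2 lower in females. Of all genes with a peak, 34.5% were higher and 0.587% lower in males and 6.10% and 7.06% in females, and the male counts again stand beside the short control male list. Gpihbp1, which anchors lipoprotein lipase on endothelium, was higher in both sexes, with 0 and 479 bases in males and 278 and 729 in females. For H3K4me1, 3 were higher and 5 lower of 40 in males, and 1 higher and 8 lower of 38 in females, beside 9.95% and 8.93% of all genes with a peak in males and 8.54% and 17.3% in females. Apoc4, in the Apoe-Apoc1 cluster, was lower in both sexes, with 1069 and 0 bases in males and 251 and 0 in females, and Lpl was lower too. Dgat2 was higher in both sexes, with 243 and 1431 bases in males and 0 and 255 in females. Some markers of other cells differed between the lists as well. Starts of the 4 endothelial markers lay inside H3K27me3 in 4, 2, 4 and 2 cases in control male, E1/E2-KO male, control female and E1/E2-KO female liver, and their summed H3K27ac was 2220, 11766, 8297 and 9556 bases. Starts of the 4 leukocyte markers lay inside H3K27me3 in 4, 2, 3 and 2 cases, whereas those of the 3 stellate and 3 cholangiocyte markers did so in 3 of 3 cases in each list. Starts of the 5 hepatocyte markers lay inside H3K27me3 in 0, 2, 0 and 1 cases. The part of other cells in the values of the members was not tested.

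The genes outside the neighbourhood whose 12 values (percent under each mark in each list) were nearest to those of the block were Proc, Tmem101, Mmp15, Slc45a3 and Als2cl, with mean absolute differences of 2.51, 2.57, 2.64, 2.72 and 2.88 percentage points. Proc encodes protein C, a plasma anticoagulant made by the liver. Each of the 5 was 0% covered by H3K27me3 in both controls, 99.9% to 100% in E1/E2-KO males and 22.8% to 51.2% in E1/E2-KO females, compared with 0%, 100%, 0% and 43.4% for the block. The block held more H3K27ac than these genes in 3 of the 4 lists, at 16.0%, 17.1% and 13.1% of the window in E1/E2-KO male, control female and E1/E2-KO female liver, against 7.59% to 14.4%, 6.59% to 15.3% and 7.32% to 10.8%.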

How the data were processed

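ChIP-seq of H3K27ac, H3K4me1 and H3K27me3 was carried out by the authors on 47 liver samples in 12 groups. The authors joined the 50 nt paired-end reads of a group and aligned them to mm9 (Bowtie 2, version 2.3.2). Broad domains of H3K27me3 came from SICER (version 1.1), run by the authors with windows of 400 bp and gaps of 2400 bp, and peaks of the other marks came from MACS2 (version 2.1.1) at default settings. The deposited lists hold chromosome, start, end and name, and no counts, so depth is unknown and no test was possible on them. SICER treats neighbouring windows as one region across gaps, so that its regions are broad, while MACS2 peaks are narrow and split easily. Starts were read as counted from 0, and 1 base was added to SICER ends, which lie before the end of a 400 bp window. No peak lay beyond the chromosome ends of the NCBIM37 (mm9) genome.

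Gene spans were those of 22367 protein-coding genes of GENCODE M1. Bases and peaks of H3K27ac and H3K4me1 were counted within 10 kb of a span and called at a 2-fold ratio of E1/E2-KO over control. H3K27me3 was the percent of the span inside regions, called at 25 percentage points. Peaks were shared from 1 bp of overlap. Named genes were the 10 members and the block, 2 neighbours on each side, pathway genes called in both sexes in the same direction, and the 5 genes nearest to the block by 12 values. Some pathway genes that this rule names are counted but not reported by name here. The members and lists were chosen with earlier results of these data known. The span of the main transcript (numbered 001) was added after the data were seen. Scripts (Python 3.11.15, NumPy 2.4.6, Matplotlib 3.10.9) were tested on simulated lists.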

Additional observations from a re-analysis of the deposited data

Results flagged for a closer look

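H3K27ac bases moved up in E1/E2-KO males and down in E1/E2-KO females at the block and at 8 members. The male ratio divided by the female ratio was 3.01 for the Apoa1-Apoc3-Apoa4-Apoa5 block, 4.17 for Apoa1, 3.91 for Apoa5, 3.68 for Apoc3, 2.33 for Apoa2, 2.32 for Apoa4, 2.23 for Apob, 1.54 for Apom and 1.51 for Apoh. The totals of the lists moved the same opposite ways, by 1.86 in males and 0.847 in females, and the control male list was the shortest. With division by the list totals, the male ratios of Apob (0.799), Apoh (0.692) and Apom (0.618) were below 1. H3K4me1 moved down in males and up in females at the block (0.443), Apoa5 (0.573) and Apoh (0.723). The female ratio at the block was 1.16, but 0.645 over the span alone, and at Apoh it was 1.03, but 0.865 with a window of 50 kb and 0.918 over the main transcript with 10 kb either side. Each group has 1 list, and these differences between the sexes were not tested.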

How the results depend on the processing

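Calls for H3K27me3 at the members stayed within 1.5 times of their number under each alternative. The rise in listed coverage of the block was called under each alternative in males. In females it was not called at 50 points, where it was 43.4 points, and was 29.7 to 44.7 points under the others. The number of members with higher H3K27ac in males went from 5 to 2 over the gene span alone, to 1 with bases divided by the list total, and to 2 when each list kept an equal number of its widest peaks, and the block ratio went from 2.30 to 1.24 with division by the list total. In females, where no member was called for H3K27ac, 1 was higher and 1 lower over the gene span alone, and 2 were lower at 1.5-fold. H3K4me1 calls of lower bases went from 3 to 0 in males and from 2 to 0 in females with a window of 50 kb, and in females to 0 over the gene span and to 5 at 1.5-fold. For higher H3K4me1 in females, 1 member was called with division by the list total, with equally many widest peaks and at 1.5-fold, and the block ratio was 0.645 over the span alone. Against genes with H3K27ac over any transcript start in both control lists, 3 of them members, the share called for H3K27ac was 14.1% higher and 0.0741% lower in males and 0.352% and 2.63% in females, for higher H3K4me1 it was 2.30% in males and 3.47% in females, and for lower H3K27me3 in females it was 4.63%. With peaks shared from 50% of the peak, 1 control male H3K27me3 region at the members was not in E1/E2-KO males, against 0 from 1 bp. The cause was not tested. Division by the list total changes each ratio of a mark and sex by the same factor and leaves the peaks as they were. No paired analysis was possible with these lists because the livers of a group were pooled before peak calling, and for the same reason no liver could be left out.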
